A study of Mus musculus with 14 samples.

Results

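Defa22, Defa24, Defa29, Defa30 and AY761184 are mouse alpha-defensin genes of the intestinal Paneth cell. They were taken by symbol after the Ensembl identifiers of the count tables were given mouse symbols, which gives 5 genes of 36536. RNA was counted in 14 mouse libraries from ileum and colon. The GFP groups (3 libraries per tissue) held live, 7AAD-negative, GFP-positive cells sorted from crypts of Atoh1GFP/GFP mice, which make a functional ATOH1-GFP fusion protein from both alleles; their age is not given. The KO groups (2 per tissue) were whole crypts of 6 to 8 week old Atoh1lox/lox;VilCreERT2 mice, and the WT groups (2 per tissue) were whole crypts of littermates carrying Atoh1lox/WT;VilCreERT2. The WT crypts therefore carry 1 floxed allele and the same recombinase, a tamoxifen-inducible Cre driven by the Villin promoter of the gut epithelium. Whether libraries of a group came from separate mice is not stated, so p-values measure the spread between these libraries, which may be technical. Mouse line, cell sorting, cell type and the make-up of the libraries (given below) differ together between the GFP and the crypt groups and cannot be told apart.

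Alpha-defensins are small cationic antimicrobial peptides that Paneth cells, at the base of small intestinal crypts, pack into granules and release into the lumen. In mice they are made as precursors that the metalloprotease Mmp7 cuts to active peptides, and they form a large cluster of recently duplicated genes. ATOH1 is the basic helix-loop-helix factor that secretory cells of the gut, Paneth and goblet cells among them, need to form. Paneth cells are a cell type of the small intestine and are not found in the normal mouse colon.

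The members fall into 2 sequence classes. RefSeq gives Defa29 the older name CRS1C and gives AY761184 the names CRS1C-3 and CRS1C-6, the cryptdin-related sequences, while Defa22 and Defa24 carry the cryptdin names Defcr22 and Defcr24. Coding sequences are 351 bases long in the CRS1C genes and 282 bases in Defa22, Defa24 and Defa30. Defa24 and Defa30 were identical at 98.6% of aligned coding positions, and Defa29 and AY761184 at 96.6%. Defa22 was 81.5% identical to Defa24 and 82.2% to Defa30, and between the classes identity was 62.7 to 65.6%. The last 90 coding bases, from the GENCODE M21 transcripts of GRCm38, are printed 5′ to 3′ because they hold most of the mature cryptdin, where the classes part. Capitals mark bases that differ from Defa24 in a global alignment, which are 1 base in Defa30, 28 in Defa22 and 44 in each CRS1C gene.
Defa24: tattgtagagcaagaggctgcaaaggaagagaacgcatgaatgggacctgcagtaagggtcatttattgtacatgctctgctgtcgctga
Defa30: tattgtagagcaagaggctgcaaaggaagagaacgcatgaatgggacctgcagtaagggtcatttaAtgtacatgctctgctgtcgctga
Defa22: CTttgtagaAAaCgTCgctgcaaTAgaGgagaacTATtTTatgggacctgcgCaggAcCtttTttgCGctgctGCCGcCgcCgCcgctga
Defa29: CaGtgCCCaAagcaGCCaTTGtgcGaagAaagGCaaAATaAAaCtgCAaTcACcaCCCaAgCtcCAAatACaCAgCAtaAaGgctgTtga
AY761184: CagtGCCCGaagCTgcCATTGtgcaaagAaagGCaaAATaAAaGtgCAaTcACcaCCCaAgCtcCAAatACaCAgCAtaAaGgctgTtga
The first 90 coding bases encode the start of the precursor and differ little between the classes. Defa29 differs there from Defa24 at 3 bases, again in capitals.
Defa24, coding start: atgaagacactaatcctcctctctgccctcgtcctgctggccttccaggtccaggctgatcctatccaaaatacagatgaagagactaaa
Defa29, coding start: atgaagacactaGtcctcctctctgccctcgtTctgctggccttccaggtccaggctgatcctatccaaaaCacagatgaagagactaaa

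Promoter sequences were found for Defa22 and Defa30 in the RefSeq table (GRCm38.p6). Each is 250 bases before to 50 bases after the gene start, both on the plus strand, at chr8:21162027-21162326 for Defa22 and chr8:21134400-21134699 for Defa30. They are printed because a knocked-out basic helix-loop-helix factor makes its E-box letters of interest. Capitals mark the TCF/LEF letters ATCAAAG, the TATA letters TATAAA and the E-box CAGATG, searched on both strands.
Defa22 promoter: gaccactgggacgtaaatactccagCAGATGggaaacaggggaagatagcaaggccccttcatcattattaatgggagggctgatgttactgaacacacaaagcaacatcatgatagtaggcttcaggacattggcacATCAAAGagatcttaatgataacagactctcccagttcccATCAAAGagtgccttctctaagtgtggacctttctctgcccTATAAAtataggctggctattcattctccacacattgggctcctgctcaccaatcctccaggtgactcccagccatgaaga
Defa30 promoter: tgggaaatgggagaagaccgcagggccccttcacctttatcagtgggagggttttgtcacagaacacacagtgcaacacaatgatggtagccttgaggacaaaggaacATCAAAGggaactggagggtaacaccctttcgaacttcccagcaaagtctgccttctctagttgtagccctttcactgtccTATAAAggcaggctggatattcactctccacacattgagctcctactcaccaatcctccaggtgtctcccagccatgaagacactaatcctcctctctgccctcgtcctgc
The TCF/LEF letters begin 112 and 72 bases before the start in Defa22 and 142 bases before it in Defa30, and TATAAA begins 31 bases before it in Defa22 and 61 bases before it in Defa30. ATCAAAG was in 3.73% of all 32851 promoters of this length and in 13 of the 16 alpha-defensin promoters of the table. TATAAA was in 13.6% of all and in 15 of these 16. CAGATG was in 17.2% of all and in 11 of 16, among them Defa22, while CAGCTG was in 16.3% of all and in 1 of 16. The wider E-box CANNTG, which covers the last 2, was in 72.3% of all promoters and in every one of the 16. Outside CAGATG its letters are left in lower case above. They begin 28 bases after the start in Defa22 and 3 bases before it in Defa30. A match is a string of letters, not a measured site, and over the 300 bases the Defa22 and Defa30 promoters were 65.8% identical.

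How far reads can be assigned to 1 copy depends on their length, which is not given in the sources used here. Of all 36-base windows of the Defa22 transcript, 11.2% occurred in no other gene, and the copy that shared most windows was Defa21. The share was 51.8% for Defa24 and 34.4% for Defa30, which share with each other, 35.9% for Defa29, which shares most with Gm14851, and 49.8% for AY761184, which shares most with Defa29. At 75 bases the shares were 43.8% for Defa22, 93.3% for Defa24, 79.3% for Defa30, 80.0% for Defa29 and 93.5% for AY761184. The levels of single genes below are uncertain to that extent, most of all for Defa22. The genes that share most windows with the CRS1C genes include no cryptdin-type member.

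**Figure D1:**
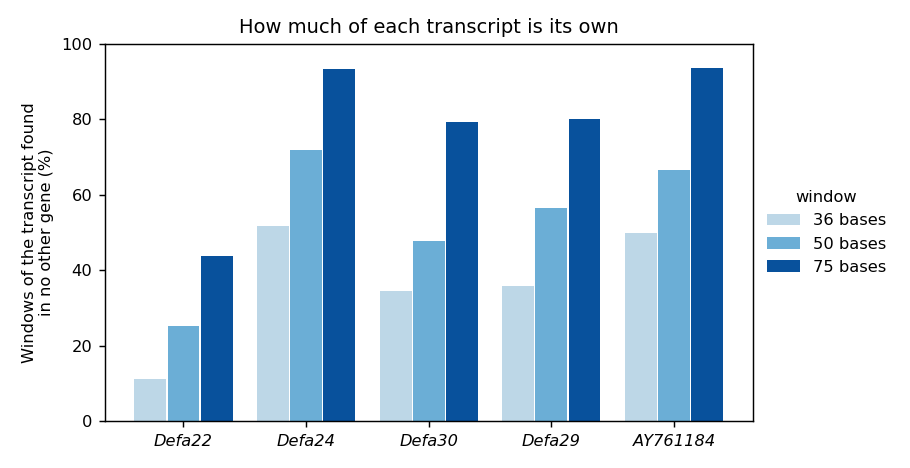
Share of the windows of each member's transcript that occur in no other gene (y axis, %), for windows of 36, 50 and 75 bases (bars, light to dark). Defa22 has the smallest share of windows of its own, 11.2% at 36 bases and 43.8% at 75.

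Gene counts summed to 7478418 to 12991891 in sorted libraries and 8848660 to 10870416 in crypt libraries. Reads placed at several sites, which the counting left out of every gene, made up 29.25 to 42.98% of all. Mitochondrial ribosomal RNA took 30.02 to 44.88% of gene counts in sorted libraries and 0.14 to 0.22% in crypts. Of the reads placed at a single site, 24.87 to 52.29% lay in no gene in sorted libraries and 9.3 to 13.25% in crypts. Levels are CPM, counts scaled to the gene total times its TMM factor, and CPM per kilobase where genes are compared with each other. Tests are edgeR's quasi-likelihood test over all genes with Benjamini-Hochberg adjustment, and a gene is called at an adjusted p under 0.05. Atoh1, the deleted gene, had 0.771 ± 0.346 CPM in ileum KO crypts and 40.3 ± 1.01 CPM in ileum WT crypts (SD, n = 2 each). In colon it had 5.55 ± 0.495 CPM in KO crypts and 53.6 ± 12.6 CPM in WT crypts (SD, n = 2 each). It was lower in the KO crypts of both tissues, with edgeR adjusted p of 0.000744 in ileum and 0.00515 in colon.

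In ileum the 5 genes together made up 2.89, 1.76 and 1.89% of gene counts in the GFP libraries, 0.0554 and 0.0391% in the KO libraries and 0.417 and 1.93% in the WT libraries. In colon they made up 0.0492% in GFP 1, 0.00077% in GFP 2 and 0.000619% in GFP 3, and at most 0.00193% in any crypt library. Per kilobase the order in ileum GFP cells was Defa24 (24664 CPM per kb), Defa30 (20834), AY761184 (16595), Defa22 (3811) and Defa29 (2733). These values divide by the full exon length, while reads placed at several sites were left out. Genes with few windows of their own, Defa22 above all, may therefore stand too low in such an order. In ileum WT crypts the order was Defa24 (14621 CPM per kb), Defa30 (5775), Defa22 (1751), AY761184 (263) and Defa29 (198), and the ranges of the WT libraries overlapped between Defa24 and Defa30, between Defa30 and Defa22 and between AY761184 and Defa29. In the GFP libraries the ranges overlapped between Defa24 and Defa30 and between Defa30 and AY761184. Within every ileum GFP and WT library Defa24 was nonetheless above Defa30 per kilobase. AY761184 was thus among the higher members in the sorted cells and, in WT crypts, next to the lowest; in KO crypts it was the lowest (6.93 CPM per kb).

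**Figure D2:**
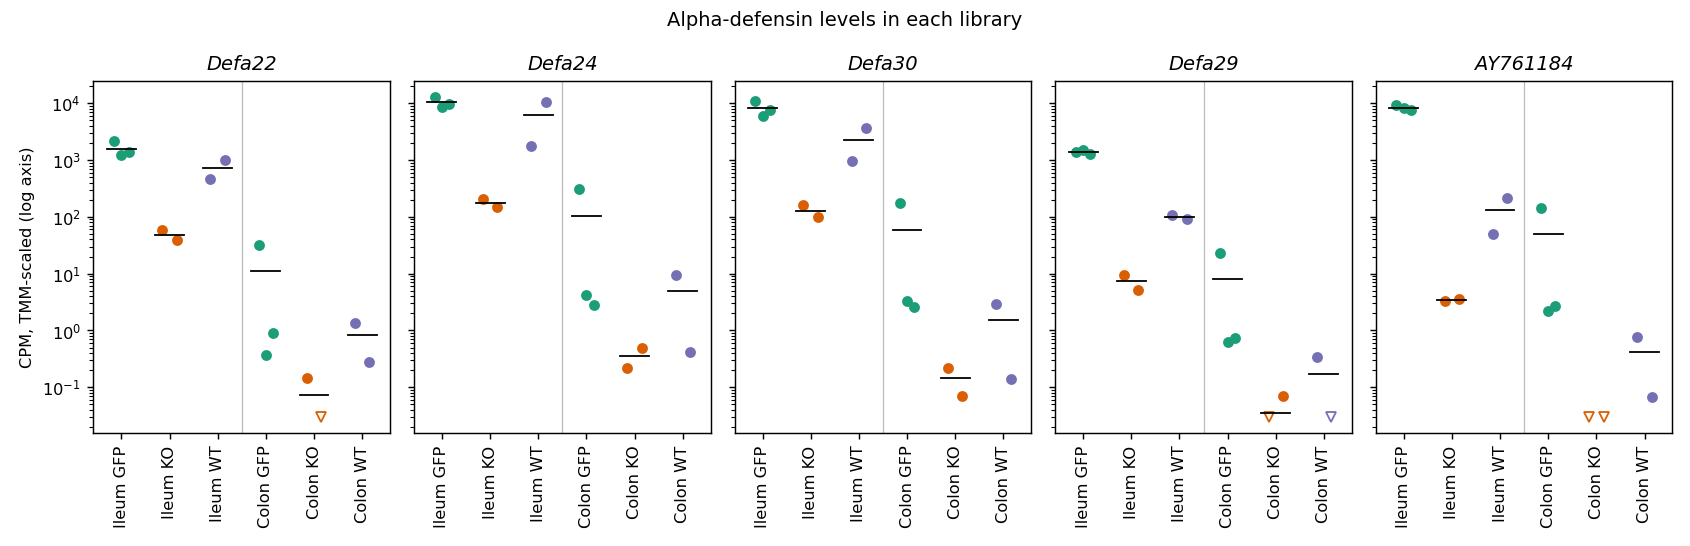
CPM of each member (log y axis) in every library of the 6 groups (x axis); points are libraries, lines are group means, and open triangles at the bottom are libraries with a count of 0. Ileum KO libraries lie below both ileum WT libraries for every member, and Colon GFP 1 lies above the other colon libraries.

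Loss of Atoh1 in the ileum came with low counts of every member. Each of the 5 genes was lower in both KO libraries than in either WT library, and Defa22 and Defa29 passed the test. How many of all genes separate in this way was not counted, here or in the comparisons below. With so few libraries per group such separation can arise without a true difference, so it only describes these libraries. Of all 14415 genes tested, 1.22% were called, and 1.09% were called lower, against 2 of 5 members called lower. The median log2 fold change of the members was -4.12, and that of all genes tested was 0.01. The members summed to 1 feature were 25.2-fold lower and missed the threshold (edgeR adjusted p 0.209). In whole crypts, fewer Paneth cells and less defensin RNA per Paneth cell cannot be told apart.

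Among the cryptdin-type genes, Defa22 had 59.1 and 38.4 CPM in the KO libraries, against 456 and 1012 CPM in the WT libraries. Its mean was 48.8 ± 14.6 CPM in KO crypts and 734 ± 393 CPM in WT crypts (SD, n = 2 each), 14.7-fold lower (log2 fold change -3.88, SE 0.57, edgeR adjusted p 0.0429). Defa24 had 206 and 148 CPM in KO crypts, against 1747 and 10505 CPM in WT crypts. The WT libraries of Defa24 lay further apart than those of any other member, and with a log2 fold change of -5.08 (SE 1.39) it missed the threshold, with an edgeR adjusted p of 0.201. Defa30, its near copy, had 160 and 98.3 CPM in KO crypts, against 949 and 3648 CPM in WT crypts (log2 fold change -4.12, SE 1, edgeR adjusted p 0.161). The groups did not overlap for either gene.

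Of the CRS1C genes, Defa29 had 9.61 and 5.26 CPM in the KO libraries, against 108 and 93.6 CPM in the WT libraries. The WT libraries agree closely for this gene, and it was 13.3-fold lower in KO crypts (log2 fold change -3.73, SE 0.37, edgeR adjusted p 0.0138). AY761184 had 3.36 and 3.61 CPM in KO crypts, against 50.5 and 214 CPM in WT crypts. Its log2 fold change of -5.21 (SE 0.91) was the largest in size of the 5 and missed the threshold, with an edgeR adjusted p of 0.0998.

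The calls rest on few libraries. The Defa29 call was lost without Ileum KO 1 (edgeR adjusted p 0.0797) or Ileum KO 2 (0.15), and the Defa22 call without either of them (0.232 and 0.338) or without any colon library (0.0643 to 0.109). AY761184 passed without Ileum WT 1 (edgeR adjusted p 0.00147) or Ileum WT 2 (0.0346). DESeq2 called 4 members, and edgeR called 0 when the 4 ileum crypt libraries were fitted alone.

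**Figure D3:**
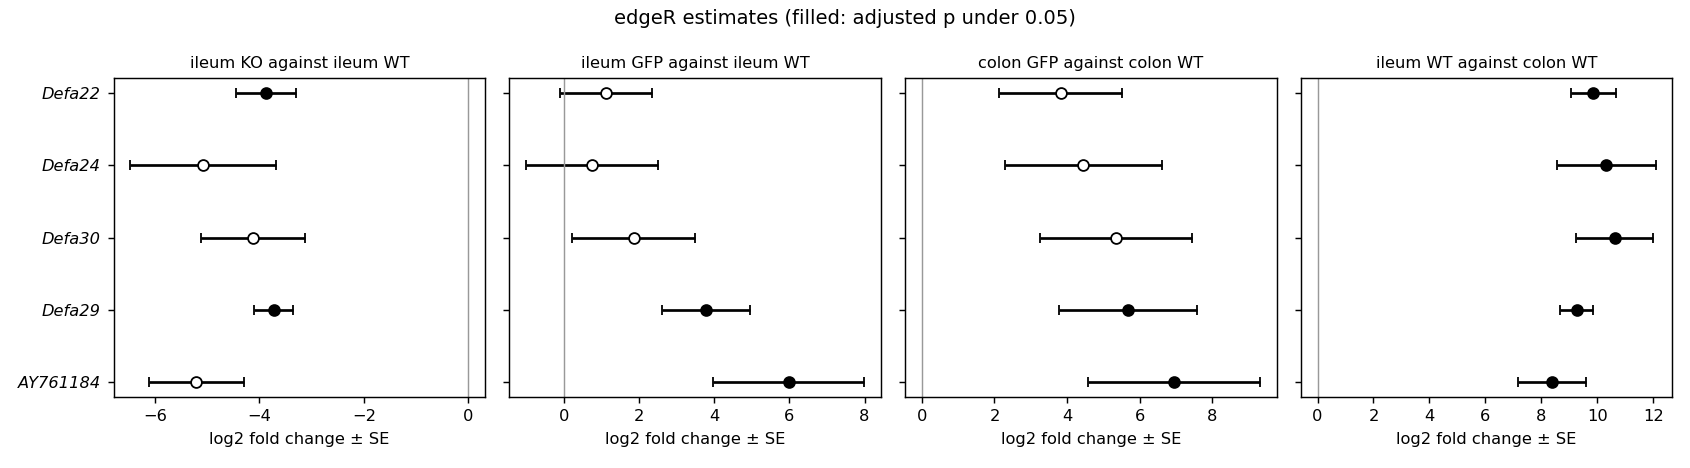
log2 fold change (x axis; points, with bars of 1 SE) of each member in 4 comparisons, from edgeR; filled points have an adjusted p under 0.05. Ileum KO against WT is negative for all 5, with Defa22 and Defa29 called, and in both GFP comparisons Defa29 and AY761184 are called and the cryptdin-type genes are not.

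The wider alpha-defensin family was read from a list of 18 further genes and pseudogenes in the count tables. Of the 11 with enough counts to test, 3 fell in ileum KO crypts and none rose, with a median log2 fold change of -5.02 and a range of -9.2 to -2.99. Defa21, which shares most windows with Defa22, had 60.3 ± 17.8 CPM in KO crypts and 776 ± 246 CPM in WT crypts (SD, n = 2 each), 12.6-fold lower (edgeR adjusted p 0.0279). Defa34 was 31.6-fold lower and Defa37 23.8-fold lower (edgeR adjusted p 0.0429 for each). Gm14851, which shares most windows with Defa29, had 4.92 ± 1.11 CPM in KO crypts and 260 ± 277 CPM in WT crypts (SD, n = 2 each) and missed the threshold (edgeR adjusted p 0.0884). Defa26 had 1.15 ± 0.139 CPM in KO crypts and 139 ± 148 CPM in WT crypts (SD, n = 2 each). Gm15292 had 0.688 ± 0.0897 and 128 ± 117 CPM (SD, n = 2 each), and neither was called.

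Other Paneth cell genes were read from a list of 21, of which 19 were tested, 3 fell in ileum KO crypts and none rose (median log2 fold change -3.47). Habp2, a secreted serine protease, was 20.4-fold lower, Copz2, a coatomer subunit, 28.6-fold lower, and Nupr1, a stress-induced nuclear protein, 5.37-fold lower (edgeR adjusted p 0.0104, 0.0133 and 0.0279). Copz2 and Nupr1 were not particular to ileum, with 5.88 and 51.8 CPM in ileum WT crypts against 7.07 and 85 CPM in colon WT crypts. Both were also lower in colon KO than in colon WT crypts, though not called (log2 fold changes -2.47 and -1.75). Habp2 had 70.5 CPM in ileum WT crypts and 0.31 CPM in colon WT crypts. Lyz1, the Paneth cell lysozyme, had 465 ± 144 CPM in KO crypts and 5266 ± 425 CPM in WT crypts (SD, n = 2 each) and lay just above the threshold (11.1-fold, edgeR adjusted p 0.0519). Mmp7, the processing protease, did likewise, with 55.5 ± 16.8 CPM in KO crypts and 637 ± 413 CPM in WT crypts (SD, n = 2 each; 11.2-fold, edgeR adjusted p 0.0512). Among 12 regulators tied to Paneth cells, 3 fell and none rose. Spdef, an ETS factor of Paneth and goblet cells, was 41.5-fold lower, Gfi1, a zinc-finger repressor downstream of ATOH1, 8.94-fold lower, and Bhlha15, a factor of secretory cell architecture, 9.09-fold lower (edgeR adjusted p 0.0142, 0.0144 and 0.0385). Reg3b and Reg3g, antimicrobial lectins that enterocytes make too, had 12700 and 7540 CPM in KO crypts and 12300 and 7240 CPM in WT crypts (edgeR adjusted p 0.976 and 0.97).

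Markers of other crypt cell types moved with the deletion as well. Of 12 goblet cell genes 6 fell in ileum KO crypts, and their summed level was 448 to 771 CPM in KO libraries and 11616 to 16710 CPM in WT libraries. Of 11 enteroendocrine genes tested 5 fell (sums of 52.1 to 58.2 CPM in KO libraries and 195 to 219 CPM in WT libraries). Of 9 tuft cell genes tested 0 were called by edgeR, where 1929 genes in all had an unadjusted p under 0.05, with log2 fold changes of -6.42 to -3.19 and a median of -4.48 (sums of 7.26 to 9.17 CPM in KO libraries and 26.7 to 380 CPM in WT libraries). No gene of the 12 on the absorptive list was called, with sums of 14098 to 15272 CPM in KO libraries and 8123 to 11020 CPM in WT libraries. Their part in the defensin result was not tested.

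The ileum WT libraries differed from each other in a way that differed between members. Ileum WT 2 held 6.01 times as much Defa24 as Ileum WT 1, 4.24 times as much AY761184, 3.84 times as much Defa30 and 2.22 times as much Defa22, but 0.867 times as much Defa29. Lyz1 was at 0.892 times, and Atoh1 had 39.5 CPM in WT 2 and 41.0 CPM in WT 1. Of the 12 other alpha-defensins with enough counts, 10 were higher in WT 2, with a median log2 ratio of 1.48. Defa35 and Defa27 went the other way, with 6.9 and 0.498 CPM in WT 2 against 123 and 20.1 CPM in WT 1. Markers of other cells differed between these libraries too: 9 of 9 tuft cell genes were higher in WT 2 (median log2 ratio 3.53) and 0 of 9 immune cell genes were (median -3.3), and their part in the difference was not tested.

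**Figure D4:**
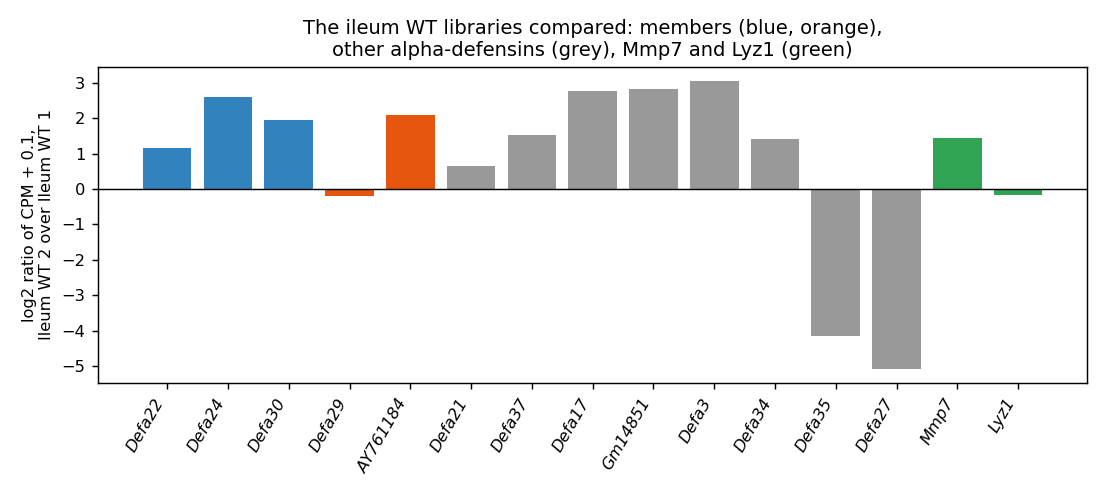
log2 ratio of Ileum WT 2 over Ileum WT 1 (y axis, CPM plus 0.1) for the 5 members (blue, cryptdin-type; orange, CRS1C), 8 other alpha-defensins (grey), and Mmp7 and Lyz1 (green). Defa29 and Lyz1 lie near 0, Defa35 and Defa27 below it, and the others above.

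In sorted ATOH1-GFP cells of the ileum the CRS1C genes Defa29 and AY761184 were called higher than in WT crypts. Defa22, Defa24 and Defa30 were not called, and the classes were set against each other through their shares of the counts. Of the 15274 genes tested 52.8% were called in this comparison, and 24.6% of those tested were called higher, against 2 of 5 members called, both higher; with shares of that size the count says little about the members. The median log2 fold change was 1.85 over the members and -0.06 over all genes, and the members' sum was not called (log2 fold change 1.67, edgeR adjusted p 0.447).

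Defa29 had 1402, 1485 and 1278 CPM in the GFP libraries, against 108 and 93.6 CPM in the WT libraries. It was 13.8-fold higher (log2 fold change 3.78, SE 1.17, edgeR adjusted p 0.0232), with every GFP library above both WT libraries. AY761184 had 9165, 8388 and 7488 CPM in GFP cells, against 50.5 and 214 CPM in WT crypts. It was 63-fold higher (log2 fold change 5.98, SE 2.01, edgeR adjusted p 0.0369), the largest difference among the members in this comparison. The Defa29 call was lost only without Ileum WT 1 (edgeR adjusted p 0.12) or Ileum WT 2 (0.122) among the libraries left out in turn. The AY761184 call was lost without any 1 of the ileum libraries or either Colon WT library (edgeR adjusted p 0.0576 to 0.191).

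The cryptdin-type genes had log2 fold changes of 0.75 to 1.85. Defa22 had 2136, 1245 and 1409 CPM in GFP cells, against 456 and 1012 CPM in WT crypts (log2 fold change 1.12, SE 1.22, edgeR adjusted p 0.464). Defa24 had 12900, 8479 and 9624 CPM in GFP cells, against 1747 and 10505 CPM in WT crypts, and is the 1 member whose groups overlap (log2 fold change 0.75, SE 1.76, edgeR adjusted p 0.74). Defa30 had 11142, 6080 and 7653 CPM in GFP cells, against 949 and 3648 CPM in WT crypts (log2 fold change 1.85, SE 1.63, edgeR adjusted p 0.366), and it passed without Colon GFP 1 (0.0487). Without Ileum WT 1 the log2 fold change of Defa24 was -0.04.

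Among the other alpha-defensins 0 of 11 tested were called by edgeR in this comparison, with a median log2 fold change of 0.98 and a range of -0.62 to 3.29; over all genes 8981 had an unadjusted p under 0.05. Gm14851 had the highest of these, with 2540 ± 635 CPM in GFP cells (SD, n = 3) and 260 ± 277 CPM in WT crypts (SD, n = 2; log2 fold change 3.29, edgeR adjusted p 0.0991). Defa17 was at 3.02 and Defa3 at 2.88, with edgeR adjusted p of 0.138 and 0.0505, and both share windows with the cryptdin-type gene Defa30. Lyz1 had 43996 ± 12234 CPM in GFP cells (SD, n = 3) and 5266 ± 425 CPM in WT crypts (SD, n = 2), with an edgeR adjusted p of 0.11. Mmp7 had 1662 ± 393 CPM in GFP cells (SD, n = 3) and 637 ± 413 CPM in WT crypts (SD, n = 2; edgeR adjusted p 0.312). Without Colon GFP 1 in the fit both passed (0.000326 for Lyz1 and 0.0139 for Mmp7), as did Gm14851, Defa17 and Defa3.

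Of the 19 Paneth genes tested 4 rose and 4 fell in ileum GFP cells. Copz2 was 5.22-fold and Guca2b, the guanylate cyclase ligand uroguanylin, 3.92-fold higher, while Reg3b was 28.8-fold and Reg3g 8.69-fold lower. Of the 12 regulators 7 rose and 2 fell, with Gfi1 6.29-fold and Spdef 3.26-fold higher. Of 12 goblet genes 9 rose and 1, Retnlb, fell, with sums of 50039 to 139456 CPM in GFP libraries against 11616 to 16710 CPM in WT libraries. All 8 stromal genes and 9 of 11 immune genes tested fell, with immune sums of 1.86 to 4.6 CPM in GFP libraries and 28.1 to 301 CPM in WT libraries. What these cells contribute to the defensin levels was not tested.

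The make-up of the counts of the 5 members set the sorted cells apart from the crypts. Genes outside the members were left out of these shares. Of these, Defa17 and Defa3 share windows with Defa30, a cryptdin-type member. They averaged 1663 and 210 CPM in ileum GFP cells against 205 and 28.7 CPM in ileum WT crypts, and neither was called. The shares therefore describe the members and not the 2 classes as a whole. The CRS1C genes gave 28.8, 38.4 and 31.9% of the members' counts in the ileum GFP libraries, against 2.96 and 3.02% in the KO libraries and 4.79 and 1.99% in the WT libraries. The widest exact 95% interval (Clopper-Pearson) among these 7 libraries was 2.51 to 3.61%, for Ileum KO 2, and such intervals cover counting error only. GFP libraries averaged 33.0 ± 4.94% (SD, n = 3), KO libraries 2.99 ± 0.0444% and WT libraries 3.39 ± 1.98% (SD, n = 2 each). The GFP share was 29.9 percentage points above that of the 4 crypt libraries together, and the groups did not overlap (exact permutation test, two-sided p = 0.0286, the smallest that 3 against 4 allows). That test pools KO and WT crypts, which differ in genotype, and was chosen with earlier results of these data known. Against the WT libraries alone, and against the KO libraries alone, the exact two-sided p was 0.1, which is the smallest that 3 against 2 allows.

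AY761184 carried most of this difference. It gave 28.3 ± 3.99% of the members' counts in ileum GFP cells (SD, n = 3), 0.998 ± 0.328% in KO crypts and 1.46 ± 0.099% in WT crypts (SD, n = 2 each). Defa24 gave 34.4 ± 1.21% in GFP cells (SD, n = 3), 48.7 ± 2.4% in KO crypts and 60.4 ± 10.7% in WT crypts (SD, n = 2 each). Defa22 gave 5.26% in GFP cells, 13.3% in KO crypts and 10.2% in WT crypts. The CRS1C shares of the KO libraries lay between those of the WT libraries, while the summed level of the members was 438 and 294 CPM in KO libraries and 3310 and 15473 CPM in WT libraries. A share within a library does not depend on the scaling of libraries to each other. Mouse line differs between sorted cells and crypts as well, and its part in the share cannot be told apart from that of sorting. Mitochondrial ribosomal RNA and reads outside genes differed between them too, and their part in the share was not tested.

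**Figure D5:**
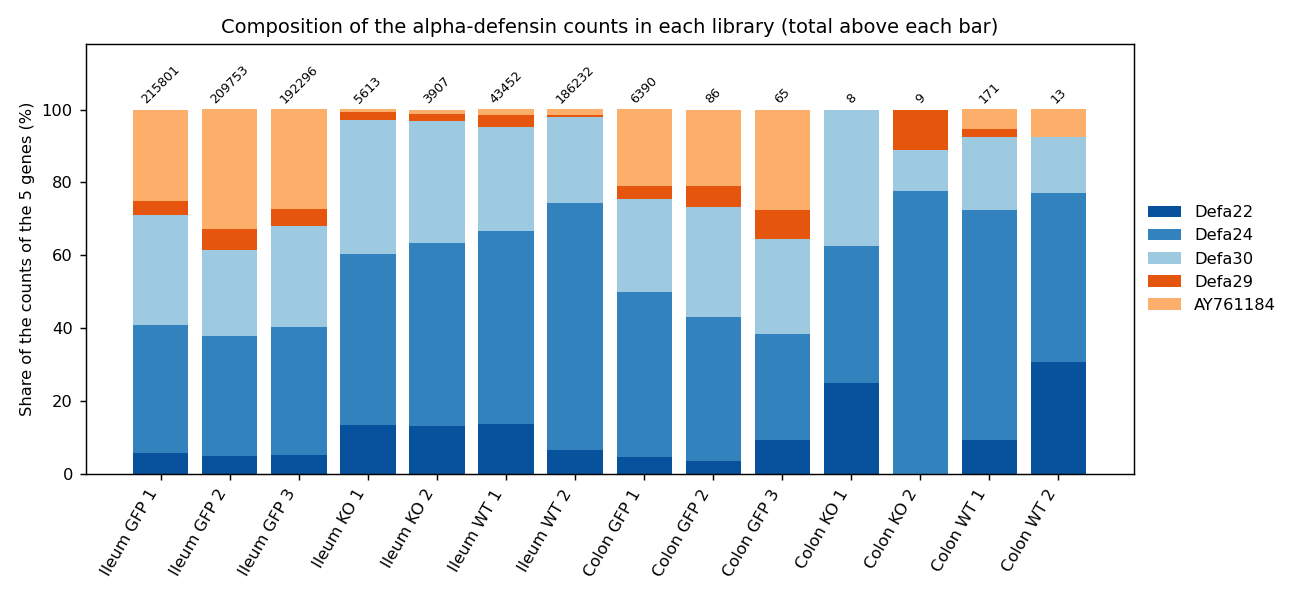
Share of the summed counts of the 5 genes that each gene gives (y axis, %) in every library (x axis), with the summed count above each bar; blues are the cryptdin-type genes and oranges the CRS1C genes. Oranges take 24.5 to 38.4% in the 6 GFP libraries and at most 11.1% in the crypt libraries, where colon totals are as low as 8 counts.

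The CRS1C share of the colon GFP libraries overlapped that of the ileum GFP libraries, at far lower totals. The CRS1C genes gave 24.5% of 6390 counts in Colon GFP 1 (exact 95% interval 23.4 to 25.5%), 26.7% of 86 counts in Colon GFP 2 (17.8 to 37.4%) and 35.4% of 65 counts in Colon GFP 3 (23.9 to 48.2%). In colon WT crypts they gave 7.6% of 171 counts (4.11 to 12.6%) and 1 of 13 counts. Colon KO crypts held 8 and 9 counts, of which 0 and 1 were CRS1C, too few to set a share.

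Colon GFP 1 stood apart from the other colon libraries. Its file name carries the same date as that of Ileum GFP 2, and that of Colon GFP 2 the same date as Ileum GFP 3, and the labels do not say what the date marks. The members summed to 679 CPM there, against 10.7 and 9.71 CPM in Colon GFP 2 and 3. Other markers of small intestinal Paneth cells were high in the same library, with 1432 CPM of Lyz1 in Colon GFP 1 against 37.7 and 42.0 CPM in the others, and 342 CPM of Itln1, a lectin of Paneth and goblet cells, against 20.7 and 9.71 CPM. Atoh1 was 295 CPM in Colon GFP 1 against 231 and 264 CPM. The members' level in Colon GFP 1 was 2.27% of their mean in ileum GFP cells, between 1.66% for Defa29 and 2.98% for Defa24, and Lyz1 stood at 3.25%. Of 8 other alpha-defensins with enough counts, 8 were higher in this library than the mean of the others. Of the 19 genes of the Paneth list with enough counts, Lyz1, Itln1 and Mmp7 among them, 12 were higher and the median log2 ratio was 0.49. Ang4 had 87.1 CPM in Colon GFP 1 against 123 and 86.2 CPM. The part of any of these in the defensin level was not tested.

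The size of the difference between colon GFP cells and colon WT crypts depended on that library. Defa29 had 23.1, 0.623 and 0.747 CPM in colon GFP cells, against 0.346 and 0 CPM in colon WT crypts (log2 fold change 5.67, edgeR adjusted p 0.0365). AY761184 had 143, 2.24 and 2.69 CPM in colon GFP cells, against 0.779 and 0.0683 CPM in WT crypts (log2 fold change 6.94, edgeR adjusted p 0.0444). For both CRS1C genes every GFP library lay above both WT libraries, and they are the 2 of 5 members called, where 45.9% of all genes were called and 22.3% were called higher. For Defa29 the separation of Colon GFP 2 and 3 rests on levels near the floor, as 3 counts make 0.374 and 0.448 CPM in these libraries. Defa22, Defa24 and Defa30 had adjusted p of 0.0944, 0.124 and 0.0643 from edgeR, and the members' sum 0.0857. Without Colon GFP 1 AY761184 was still called, and the log2 fold changes were 2.62 for AY761184 (edgeR adjusted p 0.0474), 2.06 for Defa29 (0.0853), 0.98 for Defa30 (0.455), -0.34 for Defa22 (0.806) and -0.42 for Defa24 (0.789). The AY761184 call was lost instead without any 1 of 11 other libraries, and the Defa29 call also without any 1 of 9 (edgeR adjusted p 0.0515 to 0.215).

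In colon crypts the members were near the limit of counting. Summed over both libraries, KO crypts held 2 counts of Defa22, 10 of Defa24, 1 of Defa29, 4 of Defa30 and 0 of AY761184, against 20, 114, 4, 36 and 10 counts in the WT libraries. No member was called by edgeR, with adjusted p of 0.75 to 0.927, where 0.153% of genes were called and 1108 had an unadjusted p under 0.05. The WT counts themselves differed, with 171 counts of the members in Colon WT 1 and 13 in Colon WT 2. The ratio of WT over KO was 12.2 for Defa24 (exact 95% interval 6.41 to 26.2) and 10.7 for Defa22 (2.61 to 94.6), intervals that cover counting error only and not the spread between libraries. AY761184 was 3.57-fold lower in KO crypts when the KO group was given 3 counts, the limit taken for a count of 0. That value leaves out the counting error of the WT counts, so the true difference may be smaller.

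Ileum stood above colon for every member in each of the 3 kinds of sample. In crypts the members passed the filter on low counts only through their ileum libraries. The crypt calls below are thus of genes kept because ileum is high. In WT crypts all 5 were called higher in ileum, where 19.9% of genes were called and 9.71% were called higher, with log2 fold changes of 8.38 (AY761184) to 10.62 (Defa30) and edgeR adjusted p of 0.000227 to 0.0123. The sum of the members was 3310 and 15473 CPM in ileum WT crypts, against 14.8 and 0.889 CPM in colon WT crypts (1210-fold, edgeR adjusted p 0.0108). In KO crypts 4 of 5 were called higher in ileum (25.7% of genes called, 12.6% higher), and fewer with a block by the number in the file name. AY761184, with 91 counts in ileum and 0 in colon, was not called (edgeR adjusted p 0.0977). It was 32.6-fold higher when colon was given the same limit of 3 counts. The summed level there was 438 and 294 CPM in ileum KO crypts, against 0.578 and 0.632 CPM in colon KO crypts.

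In sorted cells all 5 were called higher in ileum too (22.7% of genes called, 10.2% higher), with log2 fold changes of 6.62 to 7.39 and edgeR adjusted p of 0.00253 to 0.0411. With a block by the date in the file name, which 2 pairs of these libraries share, 0 of 5 were called by edgeR (log2 fold changes of 7.2 to 8.43, adjusted p of 0.31 to 0.454). Over all genes 3462 were called with this block, against 3474 without it. The block fit held the 6 GFP libraries alone, and only the 2 pairs that share a date bear on its tissue difference. The members summed to 36745, 25676 and 27454 CPM in ileum GFP cells, against 679, 10.7 and 9.71 CPM in colon GFP cells. Without Colon GFP 1 the log2 fold changes were 10.97 for Defa29, 11.31 for Defa22, 11.47 for Defa30, 11.5 for Defa24 and 11.72 for AY761184. The Defa24 call was lost in this comparison without any other library but Colon GFP 1 (edgeR adjusted p 0.0511 to 0.0717). In WT crypts AY761184 was no longer called without Colon WT 1 (edgeR adjusted p 0.077) or Colon WT 2 (0.0929). In KO crypts Defa24 was no longer called without any 1 of the 4 KO libraries (0.052 to 0.11), nor Defa30 without either Colon KO library (0.0519 and 0.0659), by edgeR.

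The difference between tissues in the effect of the deletion was not called for any member by edgeR (adjusted p of 1 for each, 0.00694% of genes called, 563 genes at an unadjusted p under 0.05). Its log2 values, ileum minus colon, ran from -1.86 to 0.17 and rest on the few colon counts. The difference between tissues in GFP against WT was not called by edgeR either (log2 values of -3.7 to -0.96, adjusted p of 0.5 to 0.899, 2.19% of genes called, 2636 at an unadjusted p under 0.05). Without Colon GFP 1 these values ran from 0.87 to 3.36.

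Genes with the pattern most like that of the members were ranked over the 14 libraries by the Pearson correlation of log2(CPM + 1) with the members' mean. Mmp7 came first (r = 0.989) and Lyz1 second (r = 0.987) among 9638 genes, a ranking that took genes of at least 10 CPM in a group and left out the other alpha-defensins and genes with only a Gm or Rik name, followed by Tm4sf4 (0.978), Habp2 (0.975) and Wnt3 (0.974), the last a Wnt ligand that Paneth cells supply to stem cells. Itln1, Fam3c, Epb41l2, Psat1 and Pecr followed at 0.958 to 0.946, and 5 of the 10 are genes of the Paneth list. Tm4sf4, a tetraspanin-like membrane protein, averaged 90.7 CPM in ileum GFP cells, 15.2 CPM in ileum KO crypts and 35.4 CPM in ileum WT crypts, and at most 3.85 CPM in a colon group. Between pairs of members r ran from 0.9 to 0.997, highest for Defa24 with Defa30, which share windows, and lowest for Defa22 with AY761184. The points share tissue, sorting and mouse line, so these correlations describe the 6 groups and carry no test.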

How the data were processed

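RNA of 14 mouse libraries was counted per gene. The authors deposited raw whole-number counts per Ensembl gene, 1 table per library, not normalized. The submitters' processing notes name TopHat 1.4.1, HTSeq and the mm9 build. The sources used here do not give the read length, strand setting or annotation release. Of 36536 genes, 31004 received a symbol by Ensembl identifier from GENCODE M21, an annotation of another build, used for symbols and sequence only. HTSeq's special lines stayed out of library sizes and tests.

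Tests used edgeR 4.0.16 in R 4.3.3 (TMM, filterByExpr by group, robust quasi-likelihood fit, Benjamini-Hochberg adjustment over all genes). Comparisons among crypts were fitted on the 8 crypt libraries (14415 genes) and those with GFP cells on all 14 (15274 genes). All 5 members passed the filter, in the crypt fit only through their ileum counts. Colon WT 2 and the colon KO libraries held 13, 8 and 9 counts of the 5 together. DESeq2 1.42.0, other scalings, no filter, the replicate block, the members summed to 1 feature, other sets of libraries and each library left out were the alternatives. The fit was also run on simulated counts with the same spread for every gene. The ileum WT libraries lay further apart than that for most members, so the run does not cover them. Shares were compared by exact permutation tests.

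Named genes were the members, Atoh1, other alpha-defensins reaching 10 CPM in a group, up to 4 called and 2 uncalled genes of each further list, and the 10 genes most alike; Mmp7 and Lyz1 are among the last. The members, the lists and the tests were chosen with earlier results of these data known, and list genes not found by symbol were left out (147 of 162 entries matched). Same-numbered libraries were checked for pairing by the correlation of their deviations from the group means; the numbers were not treated as pairs.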

Additional observations from a re-analysis of the deposited data

How the results depend on the processing

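Directions of single members were kept in most settings, while calls were not. The counts of members called moved as follows, each against the count given in the report. For ileum KO against WT (2 called) DESeq2 called 4, no filter on low counts 1, the replicate block 1, and fits of all 14 libraries or of the 4 ileum crypt libraries alone 0. For ileum GFP against WT (2) no filter gave 4 and the replicate block 1. For colon GFP against WT (2) no filter gave 5, DESeq2 5, the replicate block 1 and the 5 libraries alone 0. The tissue difference of the GFP effect had 3 called with no filter (0 in the report). Ileum against colon had 3 called in WT crypts with no filter (5), 2 in KO crypts with a block by the number in the file name or with all 14 libraries (4), and 0 in GFP cells with a block by the date in the file name (5). The cause of these moves was not tested. Over all settings the genes called numbered 4 to 1403 for ileum KO against WT (176), 0 to 159 for colon KO against WT (22), 0 to 335 for the tissue difference of the KO effect (1), 137 to 1093 for that of the GFP effect (335), 4184 to 7693 for colon GFP against WT (7007), 1289 to 3544 for ileum against colon WT (2872) and 1603 to 4814 for ileum against colon KO (3699).

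Leaving out 1 library at a time, members called ranged from 0 to 3 for ileum KO against WT, 0 to 3 for ileum GFP against WT, 0 to 4 for colon GFP against WT and 2 to 5 for ileum against colon KO. The log2 tissue difference of the KO effect ranged from -2.15 to 1.6 for AY761184, -2.06 to 2.49 for Defa22, -4.88 to 0.42 for Defa24, -6 to 0.37 for Defa29, -4.17 to 0.41 for Defa30 and -4.1 to 0.5 for the sum; that of AY761184 was -0.24 with DESeq2 and -0.12 with all 14 libraries. The tissue difference of the GFP effect ranged from -3.31 to 3.36 for AY761184, -4.19 to 1.47 for Defa22, -7.22 to 1.17 for Defa24, -5.72 to 1.72 for Defa29, -6.82 to 0.87 for Defa30 and -6.36 to 1.27 for the sum. Colon KO against WT ranged from -4.09 to 2.27 for Defa29 and -4.28 to 0.04 for Defa30, and colon GFP against WT from -0.34 to 5.29 for Defa22 and -0.42 to 7.95 for Defa24. In ileum GFP against WT the ranges were -0.04 to 2.55 for Defa24, -0.02 to 1.39 for Defa34 and -1.55 to 2.6 for Defa35, which was 0.21 with the replicate block, and in ileum KO against WT -3.9 to 0.24 for Defa35. Deviations from the group means gave no sign that replicate numbers pair KO with WT libraries: same-numbered KO and WT libraries correlated at 0.05 in ileum and -0.01 in colon over 14415 genes, and GFP libraries at -0.13 to 0.05 between tissues. The GFP libraries that share a date in their file names correlated at 0.13 (Ileum GFP 2 with Colon GFP 1) and 0.04 (Ileum GFP 3 with Colon GFP 2). WT 1 correlated with WT 1 across tissues at 0.32 and KO 1 with KO 1 at 0.37, with 2 libraries per group, and no sample title pairs them. The crypt file names also carry numbers, which served as a block between tissues only in the alternative setting above. Whether libraries of the 2 tissues came from the same mice was not tested.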

Other observations

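Pla2g2a, a secreted phospholipase of Paneth cells and a gene of the Paneth list, differed widely between the libraries of each crypt group. It had 462 and 7.59 CPM in the ileum KO libraries, against 64.3 and 7420 CPM in the ileum WT libraries, and 213 and 4.21 CPM in the colon KO libraries, against 24.7 and 475 CPM in the colon WT libraries. KO 1 and WT 2 were thus the higher library of their group in both tissues. In GFP cells it had 75.6 to 110 CPM in ileum and 10.6 to 15.9 CPM in colon. Ang4, an antimicrobial angiogenin of Paneth and goblet cells, was likewise uneven, at 267 CPM in Ileum WT 1 against 5167 CPM in Ileum WT 2, with 37.0 CPM in Colon WT 1 against 403 CPM in Colon WT 2. Defa27 had 20.1 CPM in Ileum WT 1 and at most 1.19 CPM in any other library. These 3 genes were chosen after their values were seen. In ileum KO against WT crypts edgeR gave adjusted p of 0.639 for Pla2g2a and 0.178 for Ang4, and the differences between libraries of a group were not tested.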
